A study of Homo sapiens with 3 samples.

Results

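The genes described here encode chromatin remodelers and bromodomain proteins. They were chosen by symbol: gene rows that begin with SMARC, ARID or INO80, or that read CHD or BRD followed by a digit and at most 1 letter, without a hyphen. The rule found 44 of 17329 gene rows. They were grouped by the complex or family they belong to, as 12 subunits of SWI/SNF, 2 ISWI ATPases, 2 further SNF2-type ATPases, 10 CHD genes, 5 INO80 genes, 7 BRD genes and 6 ARID genes that are not SWI/SNF subunits. The pseudogene row BRD7P2 and the antisense RNA SMARCA5-AS1 fell outside the rule.

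RNA was measured in Jurkat, an established human cell line from a T-cell acute lymphoblastic leukaemia, after 48 hours of culture. The control library came from cells in standard medium, the oxamate library from cells given sodium oxamate at 50 mM, which inhibits lactate dehydrogenase, and the oxamate+lactate library from cells given the same oxamate plus L-sodium lactate at 10 mM. The study asked how transcription relates to lactylation of histone H3 at lysine 18, and the values here measure RNA only. There was 1 library per condition, so no difference has a replicate check, no test was possible and "higher" and "lower" compare libraries. In bulk RNA, fewer cells of a kind and less RNA per cell cannot be told apart.

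Remodelers use ATP to slide, space, evict or exchange nucleosomes. SWI/SNF complexes open regulatory DNA and carry either SMARCA4 or SMARCA2 as their motor, and ISWI complexes space nucleosomes. The remodelers CHD1 to CHD9, but not CHD1L, carry chromodomains. INO80 repositions nucleosomes and acts on those that hold the variant H2A.Z. Bromodomains bind acetylated lysine, and BET proteins such as BRD2 and BRD3 use them to bring transcription factors to acetylated chromatin. In T-cell leukaemia ARID5B is known for being part of the gene programme of the transcription factor TAL1.

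The promoter sequences of 4 genes are shown, chosen on the values as deposited. ARID5B and ARID5A had the highest ratios of oxamate to control, and SMARCA4 and SMARCA2, the alternative SWI/SNF motors, differed in direction. The ratio of SMARCA4 was 0.08 once a trend on GC content and length, described below, was removed. Each sequence is the 250 bases before the RefSeq gene start on GRCh38.p14, all on the + strand. They lie at chr10:61901449-61901698 for ARID5B, chr2:96536502-96536751 for ARID5A, chr19:10960780-10961029 for SMARCA4 and chr9:2015097-2015346 for SMARCA2. Capitals mark matches, on either strand, to the GC box GGGCGG bound by SP factors, the E-box CACGTG bound by MYC and MAX, the ETS motif CCGGAAG and the cyclic AMP response element TGACGTCA.
ARID5B: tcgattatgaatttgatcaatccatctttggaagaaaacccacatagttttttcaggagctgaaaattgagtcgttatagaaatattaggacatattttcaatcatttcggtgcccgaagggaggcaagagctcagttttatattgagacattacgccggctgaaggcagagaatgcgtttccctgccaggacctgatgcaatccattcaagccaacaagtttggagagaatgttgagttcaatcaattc
ARID5A: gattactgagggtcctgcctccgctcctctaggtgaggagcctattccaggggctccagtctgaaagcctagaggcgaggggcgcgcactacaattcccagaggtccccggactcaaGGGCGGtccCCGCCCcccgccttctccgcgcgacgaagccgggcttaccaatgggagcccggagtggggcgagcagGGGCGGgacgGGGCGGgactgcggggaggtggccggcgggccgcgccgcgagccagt
SMARCA4: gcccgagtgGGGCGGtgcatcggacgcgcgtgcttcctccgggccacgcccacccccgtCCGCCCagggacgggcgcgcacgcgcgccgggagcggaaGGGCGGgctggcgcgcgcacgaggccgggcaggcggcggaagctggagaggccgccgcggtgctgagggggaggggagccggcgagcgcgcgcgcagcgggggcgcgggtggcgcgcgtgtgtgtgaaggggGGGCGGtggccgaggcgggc
SMARCA2: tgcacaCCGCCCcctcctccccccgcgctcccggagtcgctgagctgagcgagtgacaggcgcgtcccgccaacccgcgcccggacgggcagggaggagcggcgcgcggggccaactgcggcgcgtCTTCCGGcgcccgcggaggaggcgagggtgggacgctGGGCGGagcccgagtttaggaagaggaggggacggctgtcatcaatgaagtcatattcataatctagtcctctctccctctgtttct
The GC box was found 4 times in the ARID5A window, 4 times in that of SMARCA4, 2 times in that of SMARCA2 and 0 times in that of ARID5B, whose window had a GC content of 40.4% against 71.2%, 82.4% and 68.8%. The ETS motif was found 1 time, in the SMARCA2 window. Windows were matched by symbol for 35 of the 44 genes. Of these, 21 (60.0%) held a GC box, 5 (14.3%) the ETS motif, 1 (2.86%, CHD9) the E-box and 0 the cyclic AMP element, against 42.3%, 8.82%, 6.49% and 1.77% of 27305 RefSeq windows of the same length. The member windows had a median GC content of 66.4%, against 58% for all windows. Whether GC content or these motifs relate to the ratios was not tested. A match is a run of letters and not a measured site, and which start site Jurkat cells use was not measured here.

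The deposited values are normalized counts. They summed over genes to between 8171633 and 8821115 per library, and the number of reads behind them is unknown. Of the 44 genes, 43 passed a floor of a mean of at least 50 over the 3 libraries, as did 12292 of all genes. CHD5, a CHD gene best known from neurons, did not, at 18 in control, 27 under oxamate and 32 under oxamate+lactate. Ratios are log2((value + 1)/(value + 1)). Of all genes over the floor, oxamate against control gave a median ratio of 0.08 (SD 0.38), oxamate+lactate against oxamate one of -0.09 (SD 0.19), and oxamate+lactate against control one of -0.01 (SD 0.31). The SDs of the 18 ERCC spike-in RNAs whose mean reached 100 were 0.13, 0.11 and 0.19, and their medians 0, -0.08 and -0.08. Single spike-in RNAs ranged from -0.24 to 0.29, from -0.39 to 0.10 and from -0.39 to 0.39. The spike was added to extracted RNA, so these values leave out the variation of the cultures. Of 12 T-lineage markers, 10 were over the floor, CD28 was at 3, 66 and 20, and TRBC1 had no row in the values used here. The 8 myeloid and erythroid markers had no row there, and of the 12 other B, NK, epithelial and fibroblast markers CD79A (76, 62 and 71) and COL1A1 (202, 202 and 165) were over the floor. The part of these markers in the results was not tested.

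Remodeler and bromodomain genes were modestly higher in oxamate than in control. Their median ratio was 0.23, against 0.08 for all genes over the floor, and 31 of 43 lay above that all-gene median. The 44 genes made up 0.624% of the summed gene values in control, 0.693% under oxamate and 0.675% under oxamate+lactate. A gene called 25% higher and one called 20% lower lie equally far from 0 on the log2 scale. At least 25% higher were 14 of 43 (32.6%), against 23.1% of all genes over the floor, and at least 20% lower were 3 (6.98%), against 11.9%. At 1.5-fold the counts were near the background: 3 were higher (6.98%, against 7.48%), namely ARID5B, ARID5A and ARID1B, and 0 were lower (against 3.98%). None reached 2-fold, which 1.21% of all genes did upward and 0.879% downward. Genes of higher GC content had higher ratios (Spearman correlation 0.31 across 11225 genes and 0.23 across these 43, points that share the same libraries). The median GC content of the 43 was 50.2% against 48.2%. Their longest transcripts had a median of 5891 bases against 3722. The correlation of the ratio with that length was 0.02 across the 11225 genes and 0.28 across the 43. Removing the trend on GC content and transcript length also sets the mean ratio of all genes to 0. The median of the 43 was then 0.11 against 0.02 for all genes. ARID5B was the only member still past 1.5-fold, and the share of all genes past it was not computed with the trend removed. By group, the median was 0.17 for SWI/SNF, 0.31 for CHD, 0.29 for INO80, 0.24 for BRD and 0.25 for the other ARID genes, and without that trend 0.08, 0.20, 0.10, 0.0935 and 0.29. The 2 ISWI genes had a median of -0.0226 (0.0120 without the trend) and the 2 further SNF2-type ATPases one of -0.12 (-0.12 without the trend).

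**Figure D1:**
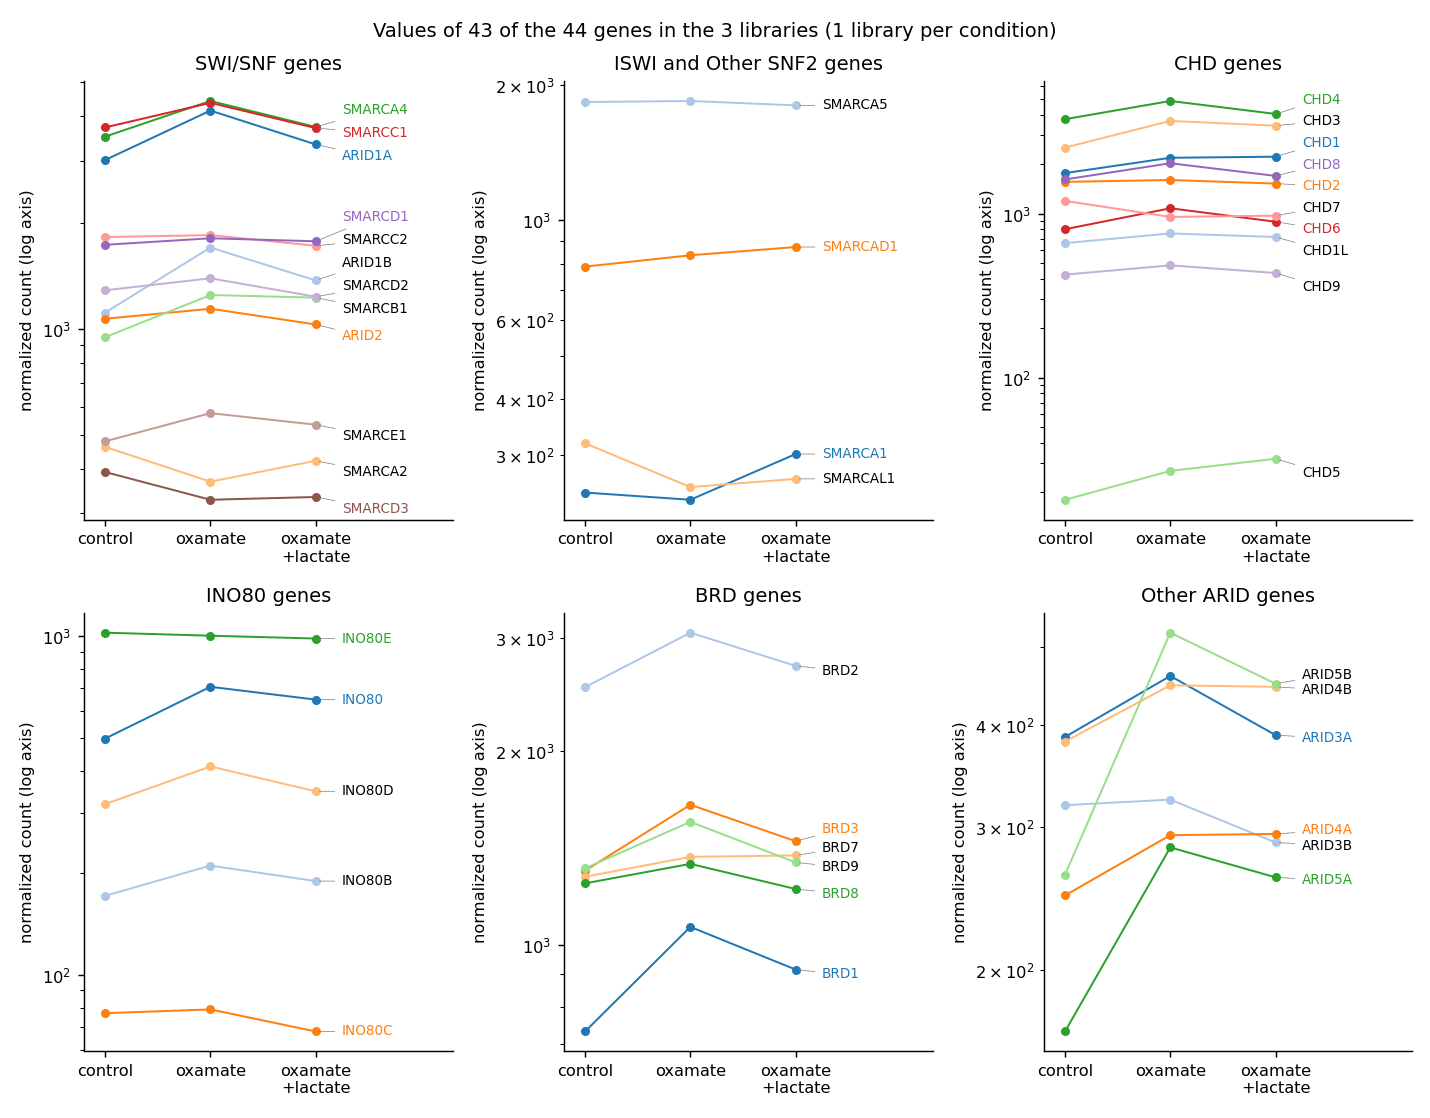
Normalized counts (y, log axis) of 43 of the 44 genes in the control, oxamate and oxamate+lactate libraries (x), 1 panel per group, 1 line per gene. ARID5B peaks in oxamate with 262, 520 and 450, while SMARCA2 (462, 368 and 422) dips there. SMARCD3, SMARCAL1 and CHD7 are lower in both treated libraries than in control.

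Among SWI/SNF subunits, the motor SMARCA4 and the DNA-binding subunits ARID1A and ARID1B were higher in oxamate, and the alternative motor SMARCA2 was lower. SMARCA4, the ATPase BRG1, had 3508 normalized counts in control, 4427 under oxamate and 3736 under oxamate+lactate, a ratio of 0.34 for oxamate against control that was 0.08 without the GC and length trend. SMARCA2, the ATPase BRM, had 462, 368 and 422 (-0.33, and -0.36 without that trend). The oxamate library was thus the highest of the 3 for SMARCA4 and the lowest for SMARCA2. ARID1A, the ARID subunit that defines the canonical BAF complex together with its alternative ARID1B, had 3010, 4158 and 3333 (0.47, and 0.23 without that trend). ARID1B had 1111, 1699 and 1371 (0.61), 1.53-fold higher in oxamate than in control. Its ratio was 0.41 without that trend. Both were highest in oxamate, and in oxamate+lactate they lay between the other libraries. ARID2, the ARID subunit of the PBAF complex, had 1067, 1139 and 1028 (0.09), close to the median of all genes.

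Of the other SWI/SNF subunits, SMARCB1 had the highest ratio in the values as deposited. SMARCB1, the core subunit lost in rhabdoid tumours, had 946, 1246 and 1225 (0.40, and 0.17 without the GC and length trend), so it was as high in oxamate+lactate as in oxamate. It shares 2923 exon bases with DERL3 in the annotation, and since strand was not kept in these libraries, reads from there cannot be told apart. The scaffold subunit SMARCC1 had 3724, 4373 and 3709 (0.23, and 0.16 without that trend). Its paralog SMARCC2 had 1820, 1843 and 1719 (0.02, and -0.13 without that trend). SMARCE1, the HMG-box subunit, had 479, 576 and 534 (0.27, and 0.29 without that trend, then above SMARCB1). SMARCE1 shares 3697 exon bases with the coding entry AC073508.2, with the same limit. The SMARCD genes encode alternative adaptor subunits: SMARCD1 had 1730, 1805 and 1770 (0.06), SMARCD2 1285, 1390 and 1232 (0.11) and SMARCD3 392, 327 and 333 (-0.26). SMARCD3, the form known from heart muscle, had the lowest ratio of the 3. Without the GC and length trend it was -0.37, then below SMARCA2 (-0.36). The ratios of SMARCD1 and SMARCD2 lay near 0 and were -0.08 and -0.07 without the GC and length trend, and that of SMARCD1 was -0.04 with equal gene totals. In the values as deposited, the median over the 12 subunits was 0.17. Of the 12, 4 (33.3%, against 23.1% of all genes over the floor) were at least 25% higher there. SMARCA2 (8.33%, against 11.9%) was at least 20% lower there.

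The ISWI motors differed little between control and oxamate. SMARCA5, the ATPase SNF2H of most ISWI complexes, had 1829, 1839 and 1798 (0.01 for oxamate against control). SMARCA1, the ATPase SNF2L, had 248 in control, 239 under oxamate and 302 under oxamate+lactate. Its ratios were -0.05 for oxamate against control and 0.34 for oxamate+lactate against oxamate, the highest of the 43 genes in the latter comparison. It was highest in the library with lactate, at a level 1.26-fold above oxamate. Of the further SNF2-type ATPases, SMARCAD1, which acts in heterochromatin maintenance and DNA end resection, had 788, 835 and 871 (0.08). SMARCAL1, which anneals DNA at stalled replication forks, had 319, 255 and 266 (-0.32) and was lower in both treated libraries than in control.

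The CHD genes had a median of 0.31 for oxamate against control. At least 25% higher were 4 of 9 (44.4%, against 23.1% of all genes over the floor), and CHD7 was at least 20% lower (11.1%, against 11.9%). CHD3 and CHD4 are the alternative motors of NuRD, a complex that couples remodeling to histone deacetylation. CHD4 had 3757, 4851 and 4044 (0.37); it shares 5964 exon bases with the coding entry AC006064.6. CHD3 had 2522, 3667 and 3432 (0.54). Without the GC and length trend the ratios were 0.22 for CHD4 and 0.33 for CHD3. Both were highest in oxamate, and with lactate CHD4 was 1.20-fold lower than in oxamate and CHD3 1.07-fold lower. The ratio of CHD3 in that comparison (-0.10) lay close to the median of all genes (-0.09). CHD1, which works behind elongating RNA polymerase, had 1763, 2186 and 2219 (0.31) and was as high with lactate as without. CHD2 had 1559, 1600 and 1522 (0.04, and -0.07 without the GC and length trend). CHD1L, which is activated by poly(ADP-ribose), had 660, 756 and 719 (0.20, and 0.16 without that trend).

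Of the remaining CHD genes, 3 were higher in oxamate than in control and CHD7 was lower. CHD8, a regulator of beta-catenin target genes, had 1613, 2024 and 1695 (0.33), CHD6 had 802, 1076 and 891 (0.42) and CHD9 had 424, 483 and 434 (0.19). Without the GC and length trend these ratios were 0.20, 0.30 and 0.17. CHD7, the gene mutated in CHARGE syndrome, had 1194, 953 and 970 (-0.32). It was the exception of this subfamily, lower in both treated libraries than in control, and it had the lowest ratio of the 43 genes for oxamate+lactate against control (-0.30). Its ratio of oxamate to control was -0.46 with the GC and length trend removed.

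In the INO80 group the ATPase was the highest. INO80 had 498, 708 and 649 (0.51), INO80D 319, 412 and 348 (0.37) and INO80B 171, 210 and 189 (0.29). The other subunits INO80C, at 77, 79 and 68 (0.04), and INO80E, at 1023, 1002 and 983 (-0.03), lay below the median of all genes. The 5 genes of the group thus spread from -0.03 to 0.51. Without the GC and length trend they spread from -0.26 (INO80E) to 0.38 (INO80), with INO80B at 0.10, INO80C at 0.08 and INO80D at 0.33. INO80B shares 1096 exon bases with INO80B-WBP1 and INO80E 1143 with HIRIP3.

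The 6 bromodomain genes of the BRD series described here lay above the median of all genes for oxamate against control in the values as deposited. Of the BET genes, BRD2 had 2516, 3058 and 2715 (0.28) and BRD3 1304, 1651 and 1449 (0.34), both highest in oxamate. BRD1, a scaffold of histone acetyltransferase complexes, had 733, 1066 and 915 (0.54), the highest of the group. BRD9, the bromodomain subunit of non-canonical SWI/SNF, had 1315, 1553 and 1343 (0.24). BRD7, its PBAF counterpart, had 1276, 1370 and 1377 (0.10) and BRD8, a subunit of the TIP60 complex, 1246, 1336 and 1221 (0.10). Without the GC and length trend the ratios were 0.11 for BRD2, 0.20 for BRD3, 0.38 for BRD1, 0.09 for BRD9, 0.09 for BRD7 and 0.03 for BRD8.

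The ARID genes outside SWI/SNF held the highest ratios. ARID5B, a DNA-binding partner of the demethylase PHF2, had 262 in control, 520 under oxamate and 450 under oxamate+lactate. It was 1.98-fold higher in oxamate than in control, a ratio of 0.99 that exceeded those of 98.7% of genes over the floor, and 1.71-fold higher in oxamate+lactate than in control. ARID5A, an RNA-binding protein that stabilises inflammatory transcripts, had 168, 283 and 260, or 1.68-fold and 1.54-fold higher than control. With the GC and length trend removed, its ratios of 0.75 and 0.63 became 0.50 and 0.52, under 1.5-fold, while those of ARID5B were 0.93 and 0.81. The 4 other genes differed less. The retinoblastoma-binding proteins ARID4A and ARID4B had 247, 293 and 294 (0.25) and 382, 448 and 446 (0.23). ARID3A, the transcription factor Bright, had 387, 460 and 389 (0.25), and ARID3B 319, 324 and 287 (0.02). Without the GC and length trend the ratios were 0.30 for ARID4A, 0.27 for ARID4B, 0.02 for ARID3A and -0.17 for ARID3B.

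**Figure D2:**
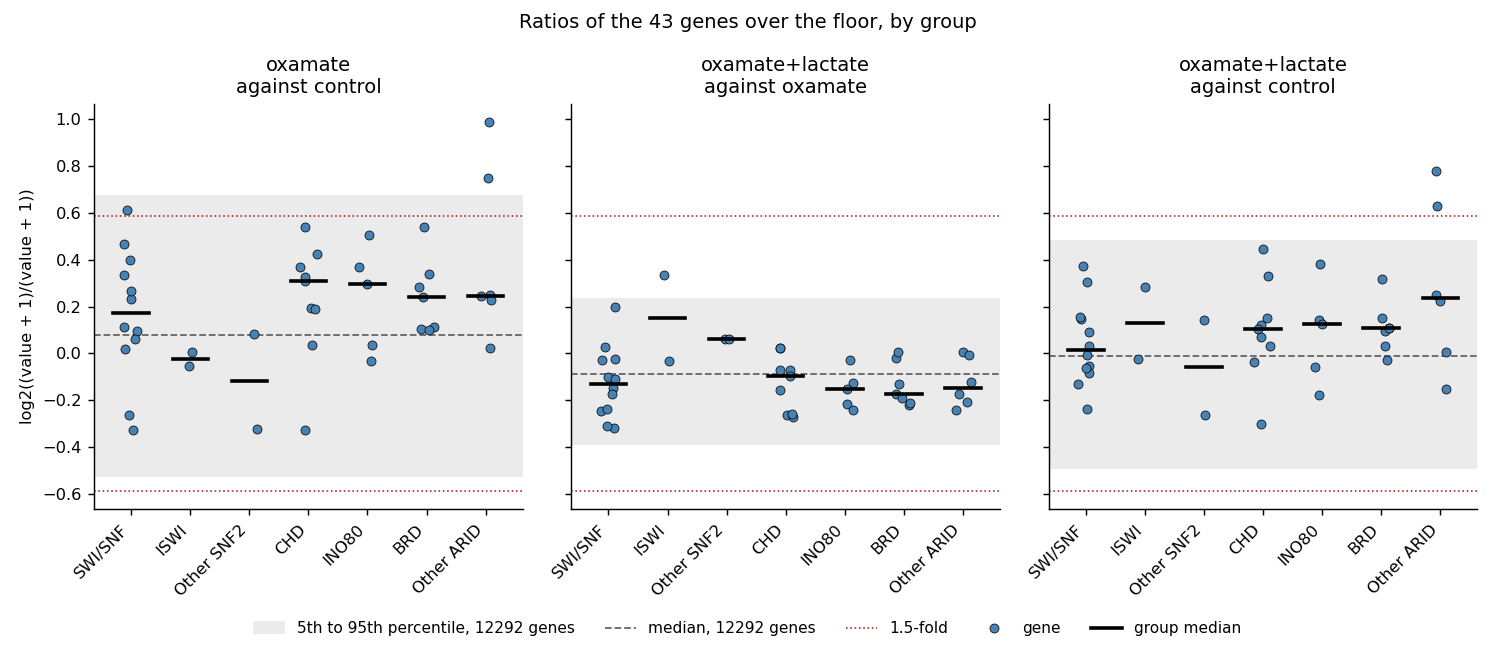
Log2 ratios (y) of the 43 genes over the floor by group (x) in the 3 comparisons; points are genes, black bars group medians, the grey band the 5th to 95th percentile of 12292 genes, the dashed line their median and dotted lines 1.5-fold. ARID5B and ARID5A lie above the band in both comparisons with control, and SMARCA1 lies above it for oxamate+lactate against oxamate.

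With lactate added to oxamate, differences were small. The median of the 43 genes was -0.13 against -0.09 for all genes over the floor, and this comparison uses the same oxamate library as the one above. At least 25% higher was 1 gene, SMARCA1 (2.33%, against 2.39%), and 0 were at least 20% lower (against 8.92%). At 1.5-fold, 0 were higher (against 0.252%) and 0 lower (against 0.903%), and at 2-fold there were 0 in either direction (against 0% and 0.00814%). The lowest ratios were those of ARID1A (-0.32), ARID1B (-0.31), CHD6 (-0.27) and CHD4 (-0.26), and the highest after SMARCA1 was that of SMARCA2 (0.20). The CHD median of -0.10 became 0.01 with columns scaled to equal gene totals, a scaling under which the all-gene median went from -0.09 to 0.02.

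Against control, the oxamate+lactate library had a median ratio of 0.11 over the 43 genes, beside -0.01 for all genes over the floor. At least 25% higher were 6 (14.0%, against 11.4%), namely CHD3 (0.44), INO80 (0.38), SMARCB1 (0.37), CHD1 (0.33) and the 2 named next. At 1.5-fold, ARID5B (0.78) and ARID5A (0.63) were higher (4.65%, against 2.99%). No gene was at least 20% lower, while 12.5% of all genes were, and none was 1.5-fold lower (against 3.07%). None was 2-fold higher (against 0.545%) or lower (against 0.342%). This comparison shares the control library with the first.

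Levels of different genes were compared per kilobase of the longest annotated transcript, in control. Among the motors SMARCA4 was the highest with 606 normalized counts per kb, followed by CHD4 with 563 and CHD3 with 343. SMARCA5 had 231, CHD1L 222 and CHD1 218, and their order is not firm without replicates. The lowest motors over the floor were INO80 with 77.3, CHD6 with 74.1, SMARCA2 with 65.4, SMARCA1 with 57.8 and CHD9 with 32.3. Of the BET genes BRD2 had 514 and BRD3 231. On this scale Jurkat RNA held mostly SMARCA4 among the SWI/SNF motors and mostly SMARCA5 among the ISWI motors.

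Ratios between related genes within a library do not depend on how libraries are scaled. The ratio of SMARCA4 to SMARCA2 was 7.58 in control, 12.0 under oxamate and 8.83 under oxamate+lactate. This was a shift of 0.66 on the log2 scale for oxamate against control, the largest of 12 pairs computed, and of -0.44 for oxamate+lactate against oxamate. The transcripts differ in GC content (61.4% for SMARCA4, 42.9% for SMARCA2), and the first shift was 0.44 once the GC and length trend was taken out. The ratio of CHD8 to CHD7 was 1.35, 2.12 and 1.75, a shift of 0.65 that was also 0.65 with the trend removed. The ratio of SMARCA5 to SMARCA1 was 7.35, 7.67 and 5.94, so it was low only with lactate (-0.37 for oxamate+lactate against oxamate). CHD4 to CHD3 was 1.49, 1.32 and 1.18, lowest with lactate. SMARCD1 to SMARCD3 was 4.40, 5.51 and 5.30, higher in both treated libraries. ARID1A to ARID1B, at 2.71, 2.45 and 2.43, ARID4B to ARID4A, at 1.54, 1.53 and 1.52, and BRD3 to BRD2, at 0.52, 0.54 and 0.53, shifted by at most 0.16.

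**Figure D3:**
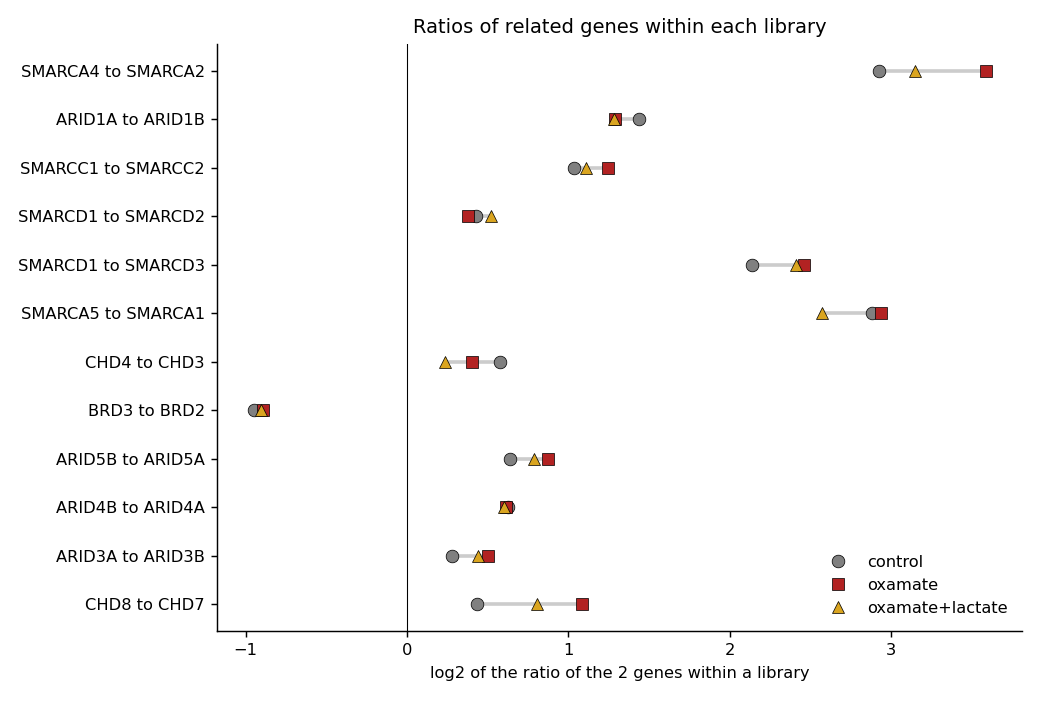
Log2 ratio (x) of the normalized counts of 12 pairs of related genes (y) within the control (circle), oxamate (square) and oxamate+lactate (triangle) libraries. SMARCA4 to SMARCA2 and CHD8 to CHD7 spread most, with shifts of 0.66 and 0.65 from control to oxamate, while ARID4B to ARID4A had log2 ratios of 0.63, 0.61 and 0.60.

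Partners of these complexes that the symbol rule does not take were described from a list of 94 genes, 90 of them over the floor. Their median ratio of oxamate to control was 0.15. At least 25% higher were 27 (30.0%, against 23.1% of all genes over the floor). At least 1.5-fold higher were 6 (6.67%, against 7.48%), and at least 20% lower were 5 (5.56%, against 11.9%). The 6 include DPF3 (42, 64 and 65), which passed the floor only through the treated libraries. By list, the median was 0.29 for NuRD partners, 0.22 for SWI/SNF partners, 0.15 for ISWI partners, 0.14 for partners of INO80, SRCAP and TIP60, 0.14 for other SNF2-type ATPases, 0.28 for genes linked to BET proteins and P-TEFb and 0.13 for other bromodomain genes. Partner ratios were not computed without the GC and length trend, so they compare only with the member ratios as deposited. BCL7A, a SWI/SNF accessory subunit, had 1213, 2038 and 1910 (0.75). MBD3, the methyl-CpG-binding-domain subunit of NuRD, had 894, 1478 and 1210 (0.72), and BPTF, the reader subunit of the ISWI complex NURF, had 1165, 1901 and 1578 (0.71). DPF1, a PHD-finger subunit of neuronal SWI/SNF, had 116, 179 and 159 (0.62). These 4 were the highest, and all were highest in oxamate. The lowest were ACTR6, an actin-related subunit of SRCAP, with 278, 190 and 217 (-0.55), the acyl-lysine reader YEATS4 with 496, 376 and 426 (-0.40), the fork-remodeling ATPase HLTF with 1859, 1424 and 1541 (-0.38) and TAF1, the bromodomain subunit of TFIID, with 922, 712 and 671 (-0.37).

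For oxamate+lactate against oxamate, the 90 partners had a median of -0.11, 0 being at least 25% higher (against 2.39%) and 3 at least 20% lower (3.33%, against 8.92%). KAT2A, the bromodomain acetyltransferase GCN5, had 1154 in oxamate and 910 in oxamate+lactate (-0.34). SHPRH, a SNF2-type ubiquitin ligase, had 598 and 478 (-0.32), the ATPase SRCAP, which deposits H2A.Z, 2608 and 2086 (-0.32), and the termination factor TTF2 1196 and 959 (-0.32). At the other end were ACTR8, an actin-related subunit of INO80, with 299 and 362 (0.28), BRWD3 with 331 and 387 (0.22), ACTR6 (0.19) and YEATS4 (0.18). ACTR6 and YEATS4 were thus lowest in oxamate and KAT2A and SRCAP highest there. Against control, the oxamate+lactate library had a partner median of 0.05, with BCL7A (0.65) and DPF3 (0.62; 42, 64 and 65) at least 1.5-fold higher (2.22%, against 2.99%) and TAF1 (-0.46) lowest.

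**Figure D4:**
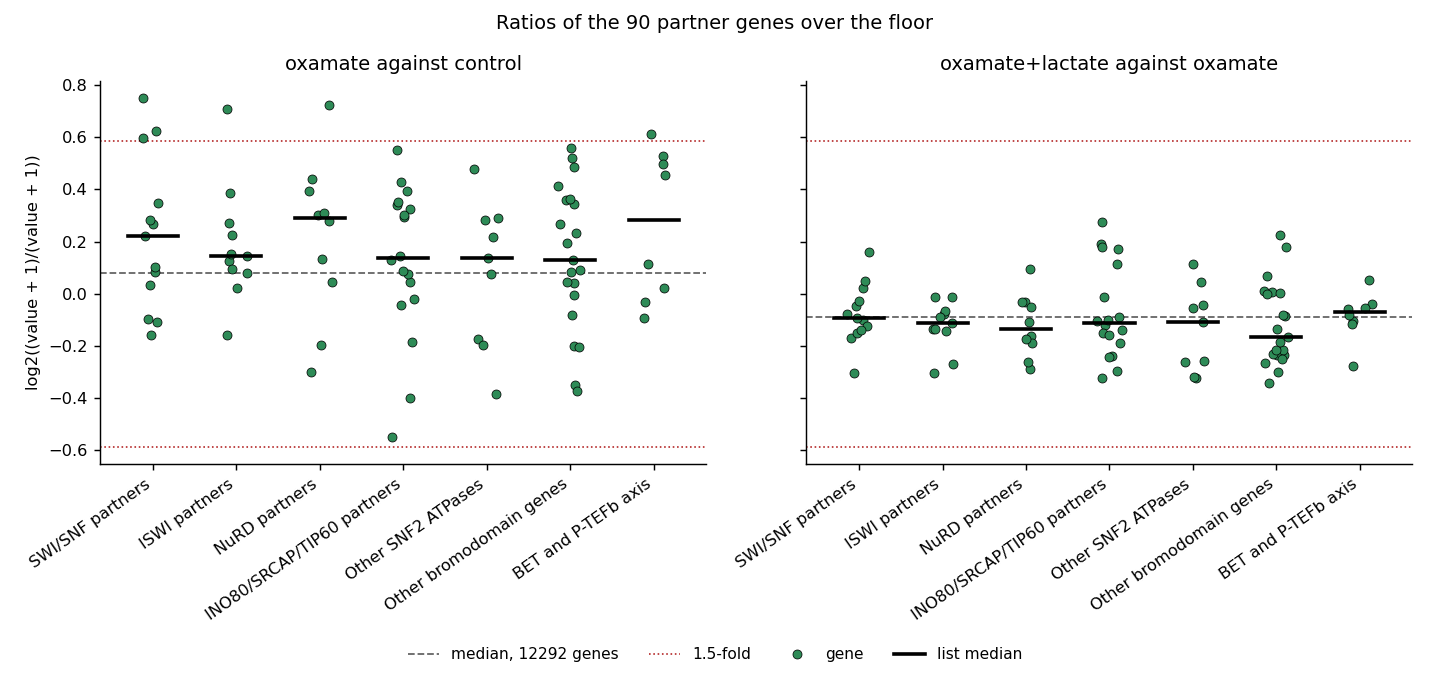
Log2 ratios (y) of the 90 partner genes over the floor by list (x), for oxamate against control and oxamate+lactate against oxamate; points are genes, black bars list medians, the dashed line the median of 12292 genes and dotted lines 1.5-fold. List medians for oxamate against control lie above the dashed line at 0.08, and no partner passes 1.5-fold in the second comparison.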

How the data were processed

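The labels name polyadenylated RNA, TRIzol extraction with an ERCC spike-in and a library kit that does not mark strand. The submitters' processing notes list STAR 2.7.1a, HTSeq 0.11.2, FastQC 0.11.9 and hg19, without role or order. The authors deposited 1 table of normalized counts, whole numbers treated here as a score that the authors rounded. Their normalization, gene filter and annotation were not given in sources used here, and no count model was fitted. Members and lists were chosen with earlier results of these data known.

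Ratios used a pseudocount of 1 and a floor of a mean of 50 over the 3 libraries, computed with Python 3.11.15, numpy 2.4.6 and pandas 2.3.3 and tested on simulated data. The values of 1 member are not reported here. Values are given for all other members. Among partners they are given for the 4 highest and lowest for oxamate against control and for oxamate+lactate against oxamate. DPF3 and the genes linked to BET proteins and P-TEFb also have values. GC content, longest transcript and exon overlaps came from GENCODE 29, on another build, matched by symbol or synonym for 91.3% of genes over the floor, and the trend was a quadratic least-squares fit. Of the 44 genes, 14 share at least 100 exon bases with another coding gene, and reads from shared bases cannot be told apart. Besides those named above, BRD7 shares 3593 with ADCY7, CHD2 1727 with AC013394.1, ARID4B 1603 with RBM34 and BRD3 1281 with BRD3OS. Promoter windows came from RefSeq on GRCh38.p14, and of the 35 member windows 26 had a start found in a GENCODE transcript of the same gene, among them all 4 shown. Alternatives changed the floor, pseudocount, scaling, fold size, summary and GC and length trend.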

Additional observations from a re-analysis of the deposited data

How the results depend on the processing

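Of 774 values of single genes under other pseudocounts, scalings and the removal of the GC and length trend, 729 moved by less than the SD of the ERCC RNAs in that comparison, and 71 changed sign, none of them from a ratio of at least 1.5-fold. The 729 say little about stability. Scalings shift all genes of a comparison by nearly the same amount, less than that SD, and pseudocounts changed values little. The 45 values that moved further thus came from the removal of the GC and length trend. Counts depended on the fold size. For oxamate against control, 3 genes were higher at 1.5-fold, 14 at 25% and 0 at 2-fold, and 0 were lower at 1.5-fold and 3 at 20%. For oxamate+lactate against oxamate, 0 were higher at 1.5-fold and 1 at 25%. For oxamate+lactate against control, 2 were higher at 1.5-fold, 6 at 25% and 0 at 2-fold. With the GC and length trend removed, 1 gene was 1.5-fold higher for oxamate against control and 1 for oxamate+lactate against control. The shares of all genes past 1.5-fold were not computed with that trend removed, so these counts have no background beside them. The same removal moved the medians for oxamate against control to 0.10 for INO80 and 0.0935 for BRD, and those for oxamate+lactate against oxamate to -0.0393 for INO80, -0.0459 for BRD and -0.0126 for the other ARID genes, while the mean of the other ARID genes for oxamate against control was 0.41 in place of the median of 0.25. The other 234 of 240 alternative medians moved by less than the ERCC SD, which for scalings and pseudocounts was again nearly fixed in advance. Signs changed for 3 medians near 0: ISWI for oxamate against control (0.01 with the trend removed), CHD for oxamate+lactate against oxamate (0.01 with equal gene totals) and the further SNF2 ATPases for oxamate+lactate against control (0.01 with equal ERCC totals). Shifts of related-gene ratios with the trend removed were added after the data were seen, and 34 of 36 moved by less than that SD. No paired analysis was possible because each condition had 1 library. The depth in reads is unknown, so counting error could not be given.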

Other observations

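Genes linked to BET proteins and to the elongation kinase P-TEFb were 1 of the partner lists above, with 8 genes, all over the floor. They are described here singly, are already counted among the 90 partners, and their ratios were not computed without the GC and length trend. Of these, 4 (against 23.1% of all genes over the floor) were at least 25% higher in oxamate than in control and 0 (against 11.9%) at least 20% lower, and the median ratio was 0.28, against 0.08 for all genes. CDK9, the kinase of P-TEFb, had 535 normalized counts in control, 734 under oxamate and 715 under oxamate+lactate (0.46 for oxamate against control). Its inhibitors HEXIM1 and HEXIM2 had 545, 786 and 732 (0.53) and 55, 78 and 72 (0.50). JMJD6, a lysyl hydroxylase, had 209, 320 and 264 (0.61), the highest of the list. The cyclins that pair with CDK9 had values of 1053, 1029 and 988 for CCNT1 (-0.03) and 465, 436 and 420 for CCNT2 (-0.09), and LARP7, which holds the inactive complex together, had 340, 345 and 358 (0.02). WHSC1L1, a histone methyltransferase, had 1596, 1726 and 1633 (0.11). CDK9 and the HEXIM genes were thus higher than control in both treated libraries, and the cyclins were not.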
